A study of Saccharomyces cerevisiae with 6 samples.

Results

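The 60S ribosomal subunit assembly and export factors are proteins that build the large ribosomal subunit, carry it out of the nucleus and are then released from it. A list of 53 budding yeast genes of this kind was matched by standard name to the systematic identifiers of a count table of 7127 genes, and all 53 were found. The list goes by known function, and its rule uses no measured value. It was chosen with earlier results of these data known, as were the lists set beside it. Each of the 53 passed the filter on low counts, and the smallest count of any of them in any library was 742.

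The libraries held polyadenylated RNA from whole-cell extracts of 1 haploid MATa strain of Saccharomyces cerevisiae in the S288c background, grown at 30 °C in YPD, a rich medium. The strain carries trp1::TetO:TRP1 and lys4::LacO:hphNT1, his3::LacR-GFP:HIS3 with TetR-mCherry, leu2::Cre-EBD78:LEU2 and ade2. At the septin gene it carries Shs1-loxPmCherry followed by the Cln2(3'UTR) and the marker NatNT2, and then loxP-GFP. The estrogen-dependent Cre recombinase cuts out the stretch between the loxP sites, which holds mCherry. The 3 mCh* libraries were collected at 0 min and the 3 mCh- libraries at 180 min after addition of 1 µM beta-estradiol, in 3 independent experiments. Both groups therefore share every allele except the excised cassette, and excision, hormone and 180 min of further culture cannot be told apart. No library of a strain without Cre, or of cells grown for 180 min without hormone, was analysed here.

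Ribosome assembly starts in the nucleolus, where RNA polymerase I makes a long precursor ribosomal RNA. Precursor particles of the large subunit form around the rRNA of that subunit and the 5S rRNA, while RNA helicases, GTPases, methyltransferases and scaffold proteins bind and leave in a fixed order. Export receptors then take the particle through the nuclear pore, and the last factors are stripped off in the cytoplasm. In yeast the genes of this pathway are known as part of the ribosome biogenesis regulon, which is transcribed strongly in growing cells and turned down under starvation and stress. Many of their promoters carry a pair of short elements known as PAC and RRPE. The proteins Dot6 and Tod6 are known to bind PAC, and Stb3 to bind RRPE.

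The letters GCGATGAG for PAC and AAAATTTT for RRPE, in either orientation, were searched in the 300 bases before the start codon of each nuclear protein-coding gene in the R64 genome. PAC was found in 32 of the 53 windows (60.4%) and in 4.05% of all 6001 windows. RRPE was found in 43 of the 53 (81.1%) and in 9.42% of all windows, and both were found in 26 of the 53 (49.1%), against 2.02% of all windows. In 23 members a PAC and an RRPE lay within a single stretch of 30 bases. DBP10, at place 50 of the 53 by the size of the fall described below, was 1 of these. RRS1, at place 4, held RRPE and no PAC. The following stretches, chosen with the results known, hold these elements in members that the results below turn on. They are read 5' to 3' on the strand of the gene, from the RefSeq copy of R64, and capitals mark PAC (GCGATGAG, or CTCATCGC in the other orientation) and RRPE.
DBP2: ccgatgCTCATCGCagAAAATTTTtccttc
CGR1: gaaaaaGCGATGAGatAAAATTTTcaggaa
ALB1: gaatgatCTCATCGCAAAATTTTttttcgc
NOP7: ttaaagAAAATTTTttGCGATGAGatgaga
NMD3: ttggAAAATTTTttgaagCTCATCGCattg
NOG1: gcagCTCATCGCaaagaAAAATTTTcacct
MRT4: AAAATTTTtttccagaaaaatGCGATGAGc
SSF1: aagaagctcatCTCATCGCgatattagttc
SSF2: taatattttcaAAAATTTTgccaaacagac
SPB4: tttcgctttcaAAAATTTTtcactgaaaaa

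These stretches lie at chrXIV:413478-413507 on the plus strand for DBP2, chrVII:439924-439953 (plus) for CGR1 and chrX:189584-189613 (plus) for ALB1. NOP7 lies at chrVII:695270-695299 (plus), NMD3 at chrVIII:443665-443694 (plus) and NOG1 at chrXVI:370831-370860 (plus). MRT4 is at chrXI:426103-426132 (plus), SSF1 at chrVIII:229227-229256 (plus), SSF2 at chrIV:1087345-1087374 (plus) and SPB4 at chrVI:147019-147048 (minus). Each lies between the member and its upstream neighbour in the annotation, and they end 79 to 207 bases before the start codon. The order and the orientation of the elements differed: PAC came first in DBP2, CGR1, ALB1 and NOG1, and RRPE came first in NOP7, NMD3 and MRT4. In ALB1 the elements abutted with no base between them.

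**Figure D1:**
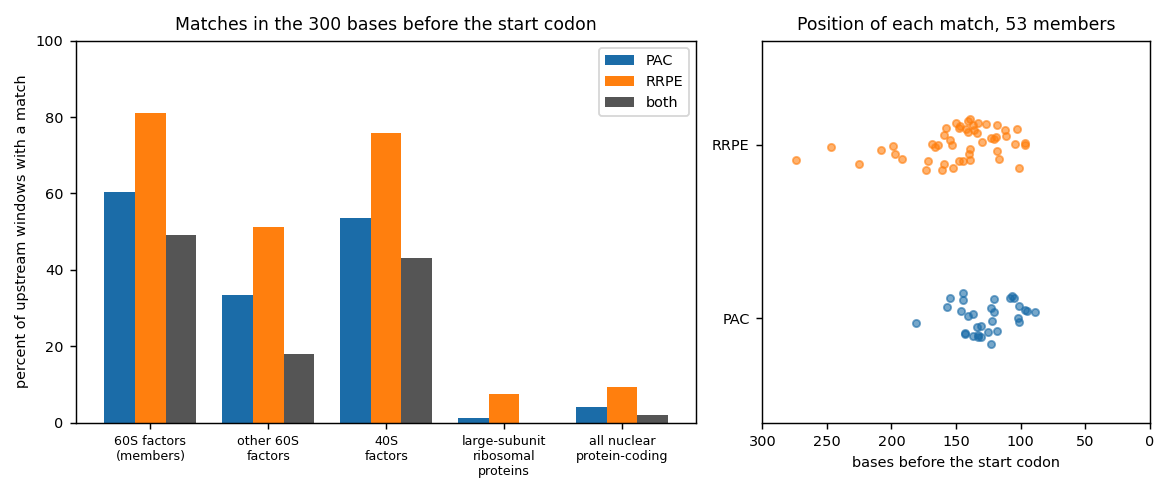
Left, percent of 300-base windows before the start codon that hold PAC, RRPE or both, for the 53 60S factors, 39 other 60S factors, 58 40S assembly factors, 81 large-subunit ribosomal protein genes and 6001 nuclear protein-coding genes. Right, distance in bases from the start codon of each of the 32 PAC and 50 RRPE matches in the 60S factors, which cluster around medians of 128 and 141.5 bases.

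All 32 PAC matches of the members lay 89 to 181 bases before the start codon, counted from the first base of the match, with a median of 128. The 50 RRPE matches lay 97 to 274 bases before it, with a median of 141.5. The shorter core of PAC, GATGAG, which lies inside the longer form, was present in 49 of the 53 windows (92.5%) and in 19.1% of all windows. JJJ1 was the 1 member with neither RRPE nor the PAC core. Among 58 assembly factors of the small subunit, PAC was in 53.4%, RRPE in 75.9% and both in 43.1%. Among 39 further factors of the large subunit the shares were lower than in the members, with PAC in 33.3%, RRPE in 51.3% and both in 17.9%. Among 81 genes for proteins of the large subunit itself, PAC was in 1.23% and RRPE in 7.41%. These are counts of letters in a window and do not show that a protein bound there.

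Total counts per library lay between 25987900 and 34032212. The marker genes of MATa cells were present at both times, with summed levels of 2555 to 3034 CPM at 0 min and 1684 to 1948 CPM at 180 min for 6 genes, while 4 markers of the opposite mating type summed to 20.4 to 23.6 CPM over all libraries. MF(ALPHA)2, the gene for a minor alpha pheromone, was at 0 in mCh*_t0 replicate 1 and mCh-_t180 replicate 3. Of the 6 MATa markers, 4 were called lower at 180 min, and the part of this difference in the results was not tested. SHS1, the engineered gene, had 68.0 ± 0.674 CPM at the start and 72.2 ± 2.37 CPM after 180 min (SD, n = 3), with an adjusted p of 0.344 by edgeR. CPM are counts scaled to the library size with TMM factors, which correct for the composition of the library.

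The comparison asked how transcript levels differed between cells collected at 0 min and at 180 min after addition of the hormone. All 53 factors were lower at 180 min, from slightly lower in SPB4 to 4.46-fold lower in DBP2. Calls rest on the quasi-likelihood test of edgeR, with p-values adjusted by Benjamini and Hochberg's method over 6220 genes and a threshold of 0.05. By this rule 53 of 53 members were called lower and 0 higher. Of all genes tested, 28.2% were called lower and 29.5% higher. The 32 members that were called lower by at least 2-fold compare with 4.5% of all genes. In each of the 53 members all 3 libraries of 180 min lay below all 3 of 0 min, which was so for 30.8% of all genes. The median log2 fold change of the members was -1.07, with quartiles of -1.26 and -0.91, beside a median of 0.02 for all genes.

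With library sizes alone, and so no composition factors, all genes had a median of 0.27, and 75.6% of calls were higher in place of 51.1%. By that scaling 52 members were called lower, where 15.6% of all genes were, and 16 were called at least 2-fold lower, where 1.54% of all genes were. The median of the members was then -0.82. As a plain share of the library, the members took up 1.11 ± 0.0252% of counts at the start and 0.599 ± 0.0201% after 180 min (SD, n = 3). The 3 libraries of 0 min had 1.08%, 1.11% and 1.13%, and those of 180 min 0.576%, 0.613% and 0.609%. All these levels are relative to the other transcripts of a library, and the amount of RNA per cell was not measured here. In RNA from a whole population, less transcript per cell, fewer cells with a high level and more of other transcripts cannot be told apart.

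**Figure D2:**
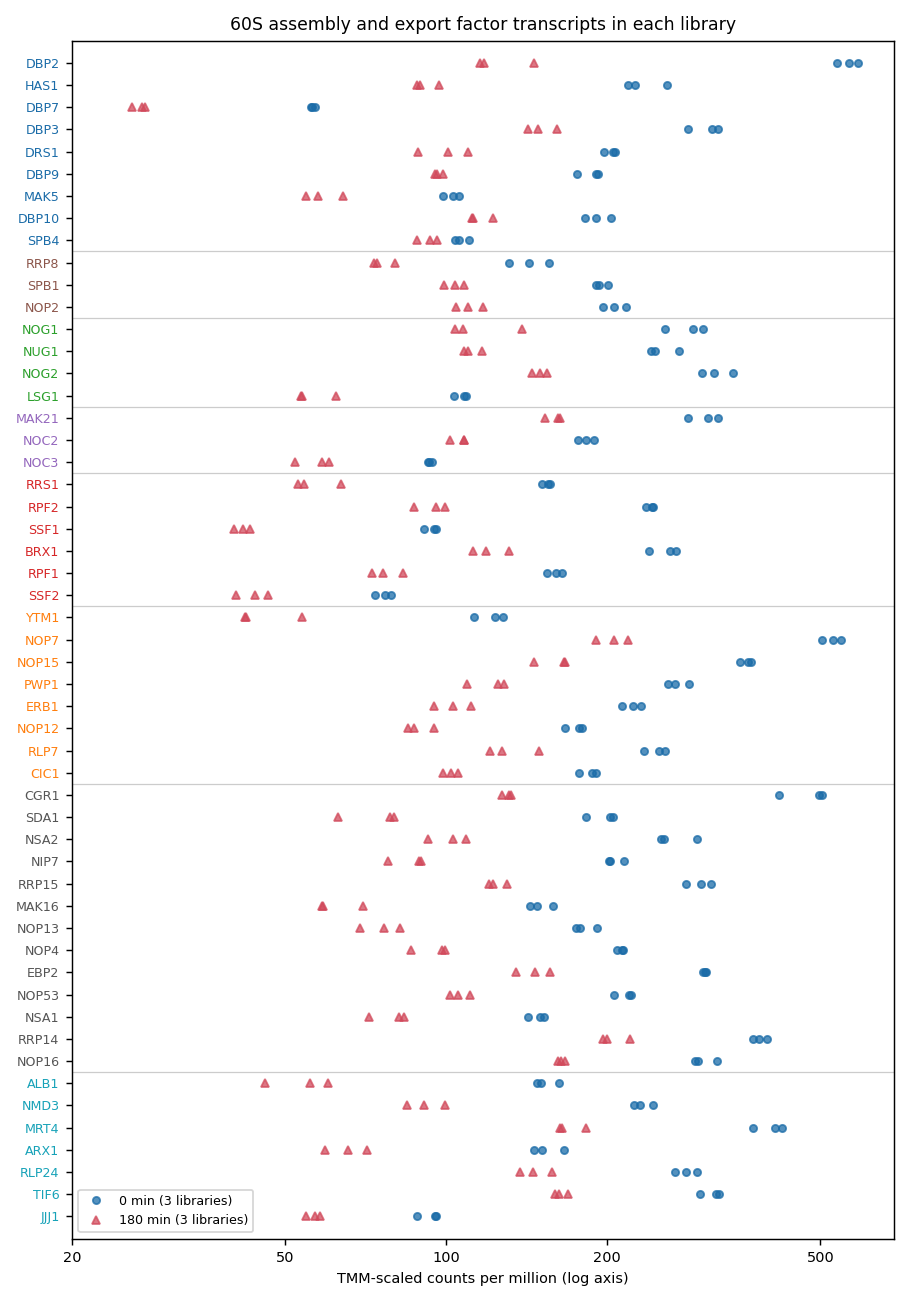
Level of each of the 53 60S factor transcripts in TMM-scaled CPM (horizontal log axis), with 1 point per library, circles for 0 min and triangles for 180 min, and gene names coloured and ordered by role. In every row the 3 triangles lie to the left of the 3 circles, by the widest gap in DBP2 and the narrowest in SPB4.

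The DEAD-box proteins, ATP-dependent enzymes that open RNA duplexes or remove proteins from RNA, held both extremes of the list. All 9 were called lower, 5 of them by at least 2-fold, and the median of their log2 fold changes was -1.02. DBP2, a helicase that also acts on messenger RNA, had 565, 588 and 538 CPM at 0 min and 116, 117 and 146 CPM at 180 min. Its groups were far apart, and its log2 fold change was -2.16 ± 0.10 (SE; adjusted p 8.2e-10, edgeR). This was the 14th lowest log2 fold change of all 6220 genes tested. DBP2 (YNL112W, chrXIV:413639-416281) contains 1 intron, and its count comes from the gene as the authors counted it. HAS1, which acts in the assembly of both subunits, was next, with 234 ± 21.4 CPM at the start and 91.4 ± 4.71 CPM after 180 min (SD, n = 3).

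SPB4, a helicase needed for late nucleolar steps, barely differed between the times. Its libraries had 104, 105 and 110.4 CPM at 0 min and 88.1, 96.2 and 93.2 CPM at 180 min. The groups did not overlap, but the gap between them was small, with a log2 fold change of -0.20 ± 0.08 (SE). The 95% confidence interval, -0.37 to -0.04, overlapped that of 0 other members. Its adjusted p by edgeR, 0.0307, rose past the threshold when mCh*_t0 replicate 2 (0.0683), replicate 3 of the same group (0.0894) or mCh-_t180 replicate 1 (0.102) was left out. With library sizes alone its log2 fold change was 0.05 (adjusted p = 0.601). The next smallest change of the helicases was that of DBP10, at -0.73, with MAK5 at -0.80 and DBP9 at -0.95. DBP3 (-1.03) and DRS1 (-1.02), which act in the nucleolus, stood at 49.1% and 49.2% of their earlier levels. DBP7 had the lowest level per length of all 53 members, at 25.3 CPM per kb of coding sequence at 0 min and 12.0 at 180 min.

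SPB4 (YFL002C, chrVI:145114-146934) shares an upstream region of 196 bases with DEG1, a pseudouridine synthase gene read in the opposite direction. DEG1 was also lower, at -0.40 (adjusted p = 0.000833 in edgeR). The window of SPB4 held 1 RRPE and 1 PAC core and no full PAC.

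The 3 methyltransferases changed almost alike. NOP2 and RRP8 methylate bases of the large-subunit rRNA, and SPB1 methylates a ribose of it. NOP2 had 197, 217 and 206 CPM at 0 min and 104, 117 and 109.8 CPM at 180 min, with no overlap between the groups. The log2 fold changes were -0.90 ± 0.08 for NOP2, -0.91 ± 0.08 for SPB1 and -0.91 ± 0.08 for RRP8 (SE), with adjusted p in edgeR of 1.84e-07, 1.01e-07 and 2.72e-07.

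Each of the 4 GTPases, which act as switches that let assembly go on, was called lower, with a median of -1.14. NOG1, which binds in the nucleolus and stays until the cytoplasm, had 289, 302 and 257 CPM at 0 min and 104, 107 and 139 CPM at 180 min. The library mCh-_t180 replicate 3 was the highest of its group, yet still far below the lowest library of 0 min. The log2 fold change was -1.28 for NOG1, -1.18 for NUG1, -1.10 for NOG2 and -0.92 for LSG1, the cytoplasmic GTPase that acts with NMD3. Within an intron of NOG2 lies the small nucleolar RNA gene SNR191, on the same strand. NOG2 was the 1 member whose span overlapped another annotated gene.

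The Noc proteins, scaffolds that bring early precursors together and move them on, had the smallest changes among the 8 roles, with a median of -0.78 over 3 genes. The log2 fold change was -0.93 for MAK21, also called NOC1, -0.78 for NOC2 and -0.71 for NOC3. NOC3, which also takes part in the start of DNA replication, had 94.2, 92.4 and 92.9 CPM at 0 min and 52.2, 58.5 and 60.4 CPM at 180 min. The groups did not overlap (adjusted p = 2.4e-06 in edgeR), and 0 of the 3 Noc genes were 2-fold lower.

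**Figure D3:**
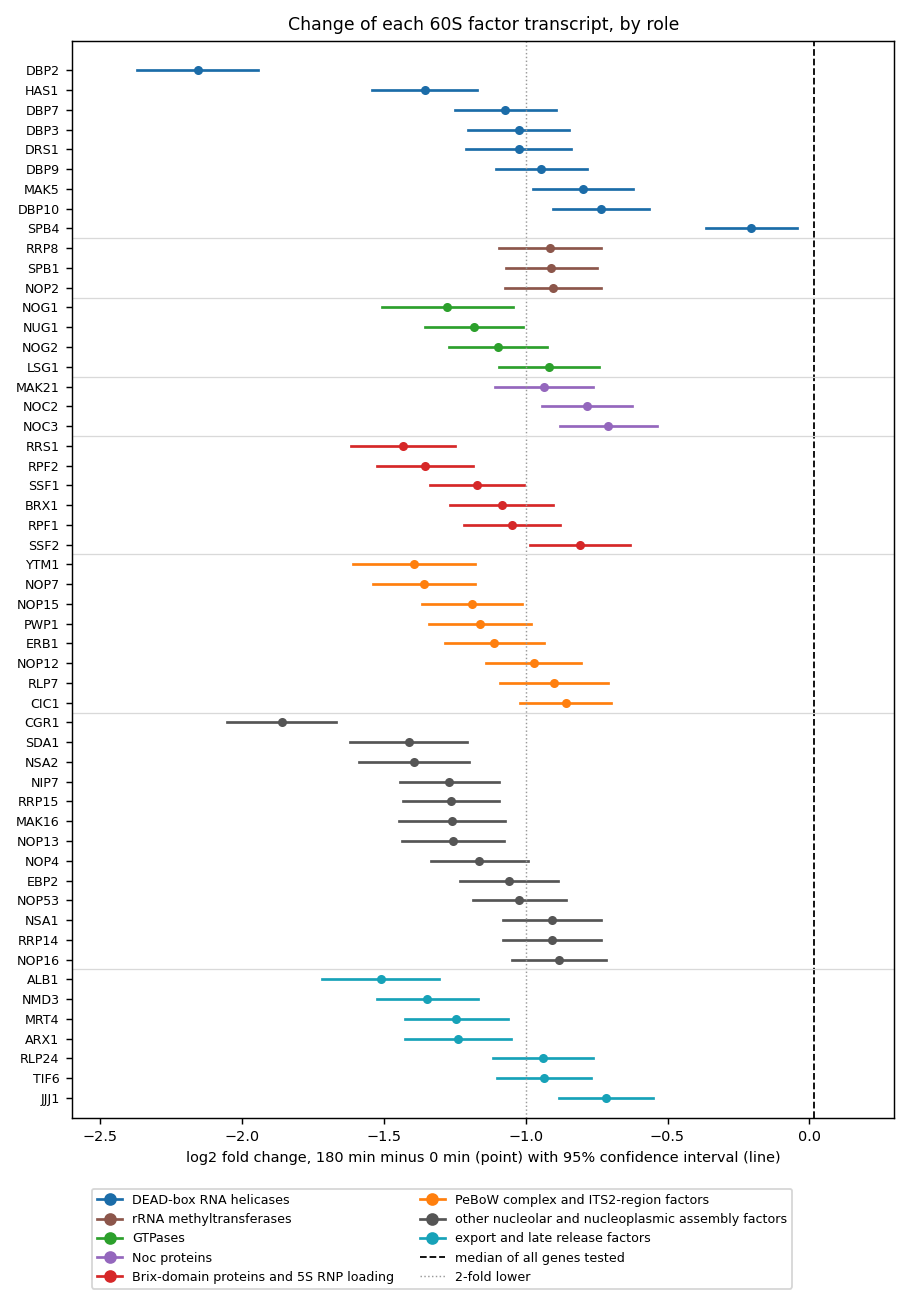
log2 fold change of each of the 53 60S factors at 180 min against 0 min (points, horizontal axis) with its 95% confidence interval (lines), ordered and coloured by role. All points lie left of the dashed median of all genes tested, and the interval lies wholly beyond a 2-fold fall in 21 members and wholly short of it in 7.

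In the group of Brix-domain proteins and the factors that place the 5S rRNA, 6 of 6 were called lower, with a median of -1.13. RRS1 and RPF2 together bring the 5S rRNA and its ribosomal proteins into the particle. RRS1 had 155, 151 and 156 CPM at 0 min and 54.3, 52.8 and 63.7 CPM at 180 min. Its log2 fold change was -1.43 ± 0.09 and that of RPF2 was -1.36 ± 0.08 (SE), which left these partners at 37.0% and 39.1% of their earlier levels. RPF1 was at -1.05 and BRX1 at -1.09.

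SSF1 and SSF2 are paralogous genes for Brix-domain proteins, with 92.1% identity over 1362 coding bases. SSF1 had 94.8, 90.8 and 95.5 CPM at 0 min and 40.1, 43.0 and 41.7 CPM at 180 min. SSF2 had 78.8, 76.8 and 73.6 CPM at 0 min and 40.4, 46.4 and 43.9 CPM at 180 min. SSF1 was thus the higher of the pair at 0 min and no longer so at 180 min. The log2 ratio of SSF1 to SSF2 counts within a library went from 0.30 ± 0.07 to -0.07 ± 0.05 (SD, n = 3), with no overlap between the times. In an exact two-sided permutation test of 3 against 3 libraries the p was 0.1, the smallest this design allows, and the adjusted p over 4 such pairs was 0.133. Of the 50-base stretches in each gene, 53 also occur elsewhere in the genome, so the division of some reads between the pair is uncertain. No other member holds such a repeated stretch. The upstream window of SSF1 held PAC and no RRPE, and that of SSF2 held RRPE and no full PAC.

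NOP7, ERB1 and YTM1 form the PeBoW complex, which is needed to process the spacer between the 5.8S and 25S rRNA, and they were grouped with other factors of that region. All 8 genes of the group were called lower, with a median of -1.14. NOP7 had 503, 547 and 528 CPM at 0 min and 191, 205 and 219 CPM at 180 min. Its log2 fold change of -1.36 ± 0.08 (SE) lay close to that of YTM1 (-1.39 ± 0.10), and ERB1 was at -1.11 ± 0.08. The 95% confidence intervals of these 3 subunits overlapped. NOP15, an RNA-binding protein, was at -1.19, PWP1, a WD-repeat protein, at -1.16 and NOP12 at -0.97. The smallest changes were those of RLP7 (-0.90) and CIC1 (-0.86).

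The largest role was made up of 13 other nucleolar and nucleoplasmic factors, all called lower, 10 of them by at least 2-fold, with a median of -1.26. CGR1, a small protein needed to process the precursor rRNA, had 504, 418 and 497 CPM at 0 min and 132, 127 and 131 CPM at 180 min. Its log2 fold change was -1.86 ± 0.09 (SE), which left 27.5% of its earlier level. Per kb of coding sequence CGR1 was the most abundant member at both times, at 1303 and 359 CPM per kb.

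SDA1 and NSA2, which join the particle around its move out of the nucleolus, had log2 fold changes of -1.41 and -1.39. NIP7, RRP15, MAK16 and NOP13 lay between -1.27 and -1.26. NOP4, an RNA-binding protein, was at -1.16, EBP2 at -1.06 and NOP53 at -1.02. NOP53 recruits the RNA exosome to the particle. The smallest changes of the group were those of NSA1 (-0.91), RRP14 (-0.91) and NOP16 (-0.88). Their adjusted p in edgeR lay between 1.74e-07 and 2.08e-07.

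Among the 7 export and late release factors 7 were called lower, 4 of them by at least 2-fold, with a median of -1.24. NMD3, the adaptor that links the particle to the export receptor Crm1, had 224, 244 and 230.4 CPM at 0 min and 84.3, 90.7 and 99.5 CPM at 180 min. ARX1 is an export factor that sits near the peptide exit tunnel, and ALB1 binds it. ALB1 had 148, 162 and 150.5 CPM at 0 min and 45.8, 55.7 and 60.0 CPM at 180 min, with no overlap between the groups. The log2 fold change was -1.51 ± 0.10 (SE) for ALB1, -1.35 ± 0.08 for NMD3 and -1.24 ± 0.09 for ARX1, and the 95% confidence intervals of these genes overlapped.

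JJJ1, the J-domain protein that helps release ARX1 in the cytoplasm, had the smallest change of this role. It had 88.1, 95.3 and 95.5 CPM at 0 min and 56.9, 58.0 and 54.7 CPM at 180 min, with groups apart and a log2 fold change of -0.72 ± 0.08 (SE). Its confidence interval, -0.88 to -0.55, lay wholly above those of ARX1 (-1.43 to -1.05) and ALB1 (-1.72 to -1.30). TIF6, which keeps the subunits from joining too early, had 319, 323 and 297 CPM at 0 min and 159.7, 163 and 169 CPM at 180 min (-0.94 ± 0.08).

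RLP24, RLP7 and MRT4 resemble ribosomal proteins, and RLP24 and MRT4 hold the place of one in the precursor until it is exchanged. Their transcripts were set against those of the ribosomal protein genes they resemble, which share 59.4% to 63.3% of aligned coding bases with them and no run of identical bases longer than 12. MRT4 had 423, 411 and 374 CPM at 0 min and 165, 163 and 182 CPM at 180 min, with a log2 fold change of -1.24 ± 0.08 (SE). RPP0, the ribosomal stalk protein that takes its place, was at -0.60 ± 0.09. The log2 ratio of MRT4 to RPP0 counts went from -2.19 ± 0.06 to -2.84 ± 0.07 (SD, n = 3), a difference of -0.65, with no overlap between the times. The exact permutation p was 0.1, the smallest possible, with 0.133 after adjustment over 4 pairs.

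For RLP7 the log2 ratio to the sum of RPL7A and RPL7B was -2.82 ± 0.01 at 0 min and -3.00 ± 0.02 at 180 min (SD, n = 3). The groups did not overlap, and the difference of -0.18 again had an exact permutation p of 0.1 (0.133 adjusted). For RLP24 the log2 ratio to RPL24A and RPL24B together was -4.34 ± 0.07 and -4.44 ± 0.04 (SD, n = 3). Here the groups overlapped, and the difference of -0.10 had an exact permutation p of 0.2, where 0.1 is the smallest possible.

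**Figure D4:**
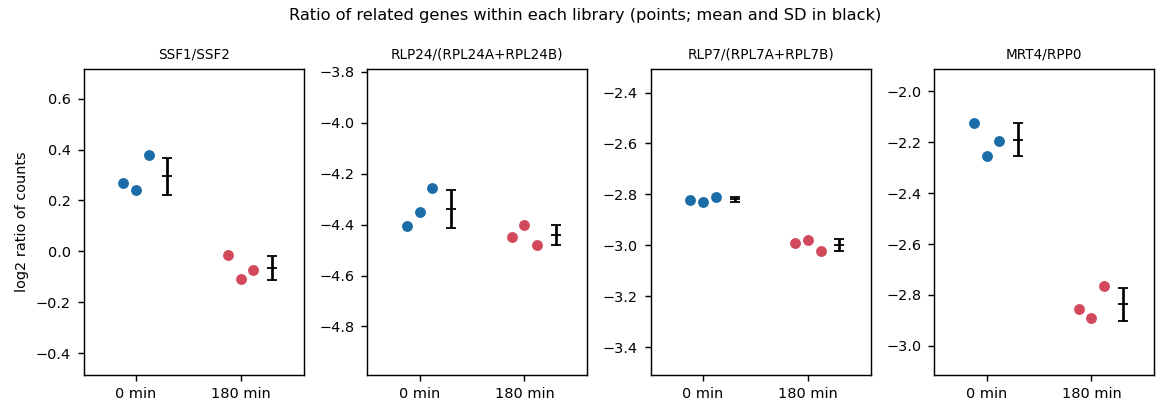
log2 ratio of counts of related genes within each library (vertical axis), at 0 min (blue) and 180 min (red), for 4 pairs, with 1 point per library and the mean and SD of 3 libraries in black. The groups are apart for SSF1/SSF2, RLP7 and MRT4, with a difference between means of -0.65 for MRT4/RPP0, and overlap for RLP24.

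Levels per length differed widely among the members, while their order changed little. At 0 min they ranged from 25.3 CPM per kb for DBP7 to 1303 CPM per kb for CGR1, with a median of 154, and the median at 180 min was 64.5. After CGR1 came MRT4 (567 CPM per kb at 0 min), NOP15 (549) and RLP24 (469). MRT4 and NOP15 differed by less than the spread of MRT4 (SD of 36.1 CPM per kb). Across the 53 genes, which are not independent replicates, Spearman's rho between the levels at the 2 times was 0.976. DBP2 moved from place 9 to place 23, and SPB4 from place 47 to place 37.

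Members with higher levels per length at 0 min tended to have more negative log2 fold changes, and so larger falls. Pearson's r was -0.51 and Spearman's rho -0.44 across 53 genes. Both values use the level at 0 min, which also enters the fold change. Against the GC fraction of the gene r was -0.34 and rho -0.45, and against its length r was 0.29 and rho 0.28. With a trend on length and GC content removed, all 53 members were called lower, as were 28.6% of all genes.

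The members lie on 15 chromosomes. For 26 of them the nearest protein-coding gene upstream is read in the opposite direction, so that the intergenic region is shared. Of the 25 such neighbours that were tested, 11 were called lower and 3 higher, with a median log2 fold change of -0.12. Of 26 tested neighbours read in the same direction, 9 were called lower and 7 higher, with a median of -0.09. Among all genes tested, 28.2% were called lower and 29.5% higher, with a median of 0.02. The difference between these sets was not tested. Neighbours that are on the list of assembly factors of the small subunit were lower: RRP3 (-0.82) beside SSF1, LCP5 (-1.05) beside NSA2 and DBP8 (-1.05) beside NMD3. All 58 listed factors of that kind were called lower.

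Set by their upstream letters, the 26 members with both PAC and RRPE had a median of -1.21 in log2 fold change, and 20 of them were called at least 2-fold lower. For the 17 with RRPE and no PAC the median was -0.94, with 7 called at least 2-fold lower. The 6 with PAC and no RRPE had a median of -1.02, with 3 called at least 2-fold lower. The 4 with neither had a median of -1.04, with 2 called at least 2-fold lower. Outside the list, 95 tested genes had both elements, with a median of -0.83 and 77 called lower, and 25 of these 95 were listed 40S assembly factors and 7 other 60S factors. The 116 other genes with PAC alone had a median of -0.48, with 61.2% called lower, and the 414 with RRPE alone had -0.37, with 59.2% called lower. A further 5023 genes with neither had a median of 0.07, and 24.4% of them were called lower. The search covered both strands, so a member and a gene read in the opposite direction from a shared region can hold the same letters. MRT4 and UFD4 do so, and such neighbours were kept among the other genes. These medians are descriptions, and the difference between the sets was not tested.

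A list of 39 further factors of the large subunit was written from textbook knowledge, with earlier results of these data known. It included both genes that changed like the members and genes that did not. Of these, 34 were called lower, 1 higher and 4 were not called, with a median of -0.94. The smallest adjusted p in edgeR were those of YVH1 (-1.52, 1.12e-09), the phosphatase that helps release MRT4, ECM1 (-1.76, 1.18e-09), BCP1 (-1.30, 4.11e-09), which accompanies a ribosomal protein, and LOC1 (-1.72, 5.96e-09). ECM1 is an auxiliary export factor.

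CRM1, the general export receptor that carries many cargoes besides the subunit, was the 1 gene called higher, with a log2 fold change of 0.28 (adjusted p = 0.00695 in edgeR). Its call was lost when a length and GC trend was taken out. REH1 (-0.17), RIA1 (-0.14), LAS1 (-0.16) and URB2 (-0.18) were not called, with adjusted p between 0.106 and 0.149 in edgeR. REH1 was called without mCh*_t0 replicate 3 (adjusted p = 0.0243), URB2 without mCh*_t0 replicate 1 (0.0309), and RIA1 and URB2 when that trend was taken out. REI1, the paralog of REH1 that removes ARX1 and ALB1 in the cytoplasm, was called lower at -1.15. MEX67 and MTR2, which form the general messenger RNA export receptor and also carry the large subunit, were at -0.23 (adjusted p = 0.0243) and -0.21 (0.0239) in edgeR. Each call was lost when any 1 of several single libraries was left out (adjusted p up to 0.134 and 0.0789), and that of MTR2 also under the replicate block and when the length and GC trend was taken out. With library sizes alone both turned direction, to 0.02 for MEX67 (adjusted p = 0.836 in edgeR) and 0.04 for MTR2 (0.61). By that scaling the 4 genes that were not called also had values above 0, from 0.07 for URB2 to 0.11 for RIA1.

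**Figure D5:**
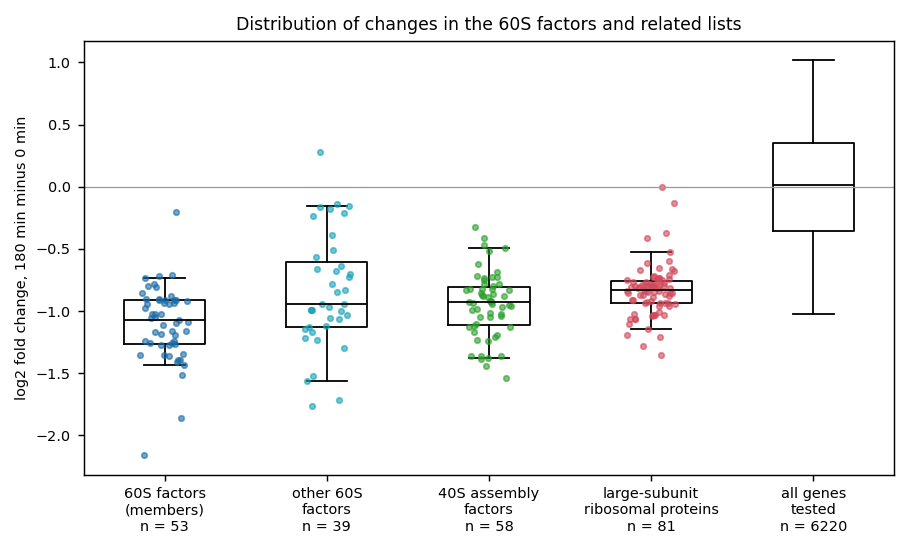
Distribution of log2 fold changes at 180 min against 0 min (vertical axis) for the 53 60S factors, 39 other 60S factors, 58 40S assembly factors, 81 large-subunit ribosomal protein genes and all 6220 genes tested. Boxes span the quartiles with the median, whiskers reach from the 5th to the 95th percentile, and points are the single genes of the 4 lists; the medians of the lists lie between -1.07 and -0.83, and that of all genes at 0.02.

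Beside the 60S factors, 58 of 58 assembly factors of the small subunit were called lower, with a median of -0.93, and 21 were called at least 2-fold lower. Of 81 ribosomal protein genes of the large subunit 79 were called lower, with a median of -0.83, and 16 at least 2-fold. As a share of all counts, which uses no scaling factor, the 60S factors at 180 min stood at 0.541 times their share at 0 min, the 40S factors at 0.634 times and the large-subunit ribosomal protein genes at 0.641 times. The difference between the lists was not tested.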

How the data were processed

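The authors deposited read counts per gene, whole numbers that are not normalized, for 6 libraries of polyadenylated RNA. The tools named, per the submitters' processing notes, include HTSeq 0.6.1p1 and STAR 2.5.3a, besides cutadapt 1.10 and bcl2fastq 2.20.0.422, and the builds R64 and sacCer3. How strand and reads with several positions were treated is not given in the sources used here, so counts of overlapping and near-identical genes are uncertain.

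Upstream windows are the 300 bases before the start codon. Names, positions and sequences came from the RefSeq copy of R64. Of 7127 identifiers, 1039 (0.469% of counts) had no match, and overlap with these was not checked. Counts were fitted for all genes in edgeR 4.0.16 (R 4.3.3), with TMM factors, its default filter, which left 6220 genes, and a quasi-likelihood F test, two-sided, adjusted over all of them. CPM, standard errors and 95% confidence intervals were computed from this fit. On simulated counts the fit recovered 14% of 1.2-fold changes, 80% of 1.5-fold, 86% of 2-fold and 98% of 4-fold, with 50 genes each. It called 143 genes there, 4 of them falsely, against 3587 in the data, so the simulation held far fewer changes. Ratios within a library were tested by exact permutation in scipy 1.17.1. Coding sequences were aligned with Biopython 1.88, and figures drawn with matplotlib 3.10.9.

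The members and lists were chosen with earlier results of these data known. All 53 members are named. Of the other 60S factors those called with the 4 smallest adjusted p, and all not called or called higher, are named. REI1, MEX67 and MTR2 and the neighbours of members were named with their values known. The settings varied were the scaling factors, the filter and the set of genes, with DESeq2 1.42.0, limma-voom (limma 3.58.1), a replicate block, removal of a length and GC trend, a threshold of 0.01 and each library left out. P-values of edgeR rest on the spread between the 3 libraries of each time, which the fit moderates with information from all genes tested. Standard errors and intervals come from the same fit, so they are not the spread of 1 gene alone. Over the members the standard errors ran from 0.0751 to 0.1083.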

Additional observations from a re-analysis of the deposited data

How the results depend on the processing

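Of 53 members, 52 or 53 were called lower and 0 higher under each of the 17 other fits. SPB4 was the 1 member whose call changed. Its log2 fold change was 0.0488, on the other side of 0, with library sizes alone, and its call was lost at a threshold of 0.01, under the replicate block (adjusted p = 0.0568 in edgeR) and without any 1 of 3 single libraries. With library sizes alone, which leave out the composition factors, 16 members were called at least 2-fold lower in place of 32, and the median of the members was -0.82 in place of -1.07. The summed share of the members went from 1.11% to 0.599% of all counts, a difference of -0.509 percentage points. With ribosomal protein genes left out of the denominator it went from 1.65% to 0.759%, a difference of -0.896 points from a larger share. Leaving out each library in turn gave medians of -1.11 to -1.06 and 30 to 33 members called at least 2-fold lower. Deviations of same-numbered libraries from their group means had correlations of -0.02, -0.03 and -0.18. Such deviations add up to 0 over the 3 libraries of a group, so these values cannot decide whether the numbers pair the libraries. With the replicate block 52 members were called lower and 3390 genes in all, in place of 3587. Pairing cannot alter the differences of the 4 gene ratios, since a mean of paired differences equals the difference of the means. Their exact sign-flip p was 0.25, the smallest that 3 pairs allow.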
